A study of Homo sapiens with 6 samples.

Results

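Integrin subunit genes were followed in the J82 bladder cancer line before and after doxycycline: ITGA2, ITGA3, ITGA5, ITGA6, ITGAV, ITGB1, ITGB3, ITGB4, ITGB5 and ITGB8. These 10 genes were chosen by name, out of 52992 genes with listed transcripts, and the counts of all their transcripts were summed. All 10 averaged 50 or more counts across the 6 libraries, as did 11909 genes in all, which are called measured genes here. The cells were J82, an established human bladder carcinoma line, in which doxycycline switches on a ZFP36L1 construct (tet-ZFP36L1) or a control (tet-control). Each line was sampled without doxycycline (0 h) and after 6 and 24 h with doxycycline at 1 µg/mL, giving 6 groups of 1 library each. All cultures were near confluence at the start of treatment, and the labels do not say whether either line was a clone or a pool. No group had a replicate, so groups were not tested against each other and p-values are absent. Each interval covers 95% of counting error and leaves out variation between cultures and the error of dividing reads among transcripts.

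Integrins are cell-surface receptors, each made of an alpha and a beta chain, that hold cells to the extracellular matrix and signal in both directions across the membrane. The chains assemble before they reach the surface, so an alpha chain depends on its beta partner. ITGB1 pairs with most alpha chains, including ITGA2 (collagen and laminin), ITGA3 (laminin), ITGA5 (fibronectin), ITGA6 (laminin) and ITGAV. ITGAV also pairs with ITGB3, ITGB5 and ITGB8, which bind ligands with an arginine-glycine-aspartate motif such as vitronectin and, for ITGB8, the latent form of TGF-beta. ITGB4 pairs with ITGA6 in hemidesmosomes, which anchor epithelial cells, urothelium included, to the basement membrane. ZFP36L1 is an RNA-binding protein that attaches to AU-rich stretches near the 3' ends of mRNAs and recruits the decay machinery to them.

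The libraries held 20739025 to 21380480 estimated counts. In CPM (TMM-scaled counts per 1000000), ZFP36L1 was at 220.2, 3127 and 3133 in tet-ZFP36L1 over the 3 times, against 233.8, 223.3 and 206.0 in tet-control, so the levels went with the labels. The 24 h library of tet-ZFP36L1 differed from the rest. It had 15695 genes with at least 10 counts, against 14515 to 14956 in the others, and a scaling factor of 1.115, against 0.941 to 1.006. Of the listed epithelial and urothelial markers, 4 of 10 had at least 50 counts in each library, KRT7, KRT8, KRT18 and EPCAM, while the mesenchymal markers VIM, CDH2 and FN1 all had. The epithelial list summed to 1133, 1615 and 1263 CPM in tet-ZFP36L1, against 687.2, 859.5 and 682.1 CPM in tet-control. The mesenchymal list, mostly FN1 in tet-ZFP36L1, summed to 11408, 13631 and 3572 CPM there, against 1179, 1616 and 1350 CPM in tet-control, and was thus low at 24 h together with the integrins. Its part in their levels was not tested. The 7 leukocyte markers summed to at most 2.06 CPM, and the 4 platelet and endothelial markers used to at most 2.23 CPM. In bulk RNA, fewer cells of a kind and less RNA per cell cannot be told apart.

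For each gene, the most abundant coding transcript with an annotated stop codon was taken, and coding transcripts without one were left out. Its 3' UTR was searched on the sense strand for TATTTAT, the core of the AU-rich sequence that ZFP36-family proteins bind. These windows are shown because ZFP36L1 is the protein that was induced. Of the 10 subunits, 5 held at least 1 copy: ITGA2, ITGA3, ITGA6 and ITGB1 held 1 each and ITGB8 held 6. Of 10541 measured protein-coding genes, 3061 held at least 1 copy, and 11.2% held 2 or more. The share grows with length, from 31.7% of 3' UTRs of 1000 to 1999 bases to 53.9% at 2000 to 3999 and 73.3% at 4000 to 6000. The 5 subunits with a copy had 3' UTRs of 1178 bases (ITGB1), 1402 (ITGA3), 2030 (ITGA6), 4180 (ITGA2) and 5757 (ITGB8). The 5 without one had 149 (ITGAV), 260 (ITGB4), 1032 (ITGA5), 1612 (ITGB3) and 1675 bases (ITGB5). The windows below, from GENCODE 29 transcripts on GRCh38, are 30 bases long, read 5' to 3' on the transcribed strand, with the motif in capitals.
ITGA2, chr5:53091148-53091177, plus strand: agtgataatttTATTTATaaactaggtaaa
ITGA3, chr17:50089303-50089332, plus strand: ccctttcttccTATTTATcataagttatgc
ITGA6, chr2:172504887-172504916, plus strand: tttgtatatggTATTTATtttttcttttct
ITGB1, chr10:32900408-32900437, minus strand: tttactgaagtTATTTATtaaatatgccta
ITGB8, chr7:20413095-20413124, plus strand: cagtgcacacgTATTTATaaacatttgtta
ITGB8, chr7:20413134-20413163, plus strand: aaacttgctaaTATTTATtaagtcatagac
The ITGB1 copy starts at base 1144 of the 1178-base 3' UTR and was the only one of these transcripts' copies that lies in the longer 9-base form TTATTTATT, which 7.56% of the searched genes held. The motifs in the ITGB8 windows shown start at bases 3109 and 3148 of its 3' UTR, the closest pair of the 6. ITGAV had no copy in its most abundant coding transcript (ENST00000433736), but 2 in another (ENST00000261023), whose 3' UTR has 3609 bases. The searched transcript held 18.0% of the gene's TPM for ITGB5 and 28.4% for ITGB4. A coding ITGB5 transcript that was left out (ENST00000496703) was more abundant than the searched one (ENST00000296181) in every library except tet-ZFP36L1 at 0 h. In tet-ZFP36L1 it was at 30.9 against 34.0 TPM at 0 h, 36.5 against 28.0 at 6 h and 41.0 against 30.1 at 24 h. In tet-control it was at 73.2 against 54.2 TPM at 0 h, 55.9 against 35.4 at 6 h and 50.3 against 42.4 at 24 h. A match describes the letters and does not show that the protein binds there.

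At 24 h most of the subunits had less mRNA in tet-ZFP36L1 than at the start, among them ITGA2, ITGA3, ITGA6, ITGB1, ITGB3 and ITGB8, while ITGB4 had more. Summed over the 10 genes, the level per length was 715.9 TPM (transcripts per 1000000) in tet-ZFP36L1 at 24 h, 45.0% of its 0 h sum of 1590 TPM, and 1317 TPM in tet-control, 81.2% of its 0 h sum of 1622 TPM. At 6 h the sums were 82.8% and 101% of the 0 h sums in tet-ZFP36L1 and tet-control. ITGA3 and ITGB1 made up most of the sum in every library, so the sums say little about the other subunits. From 0 to 24 h in tet-ZFP36L1, ITGA3 went from 603.0 to 196.7 TPM and ITGB1 from 574.7 to 209.5 TPM. In tet-control they went from 379.9 to 317.8 TPM and from 692.9 to 592.9 TPM. The own change of a line is its log2(CPM + 0.5) minus that of its 0 h library, and a gene was called lower or higher when the value passed 1.5-fold (0.585 on the log2 scale). In tet-ZFP36L1 at 24 h, 7 of 10 subunits were called lower and 1, ITGB4, higher, while 17.0% of measured genes were lower and 11.8% higher. The other subunit called lower was ITGAV. In tet-control at 24 h, 0 of 10 were called in either direction, where the shares of measured genes were 1.92% lower and 1.6% higher.

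**Figure D1:**
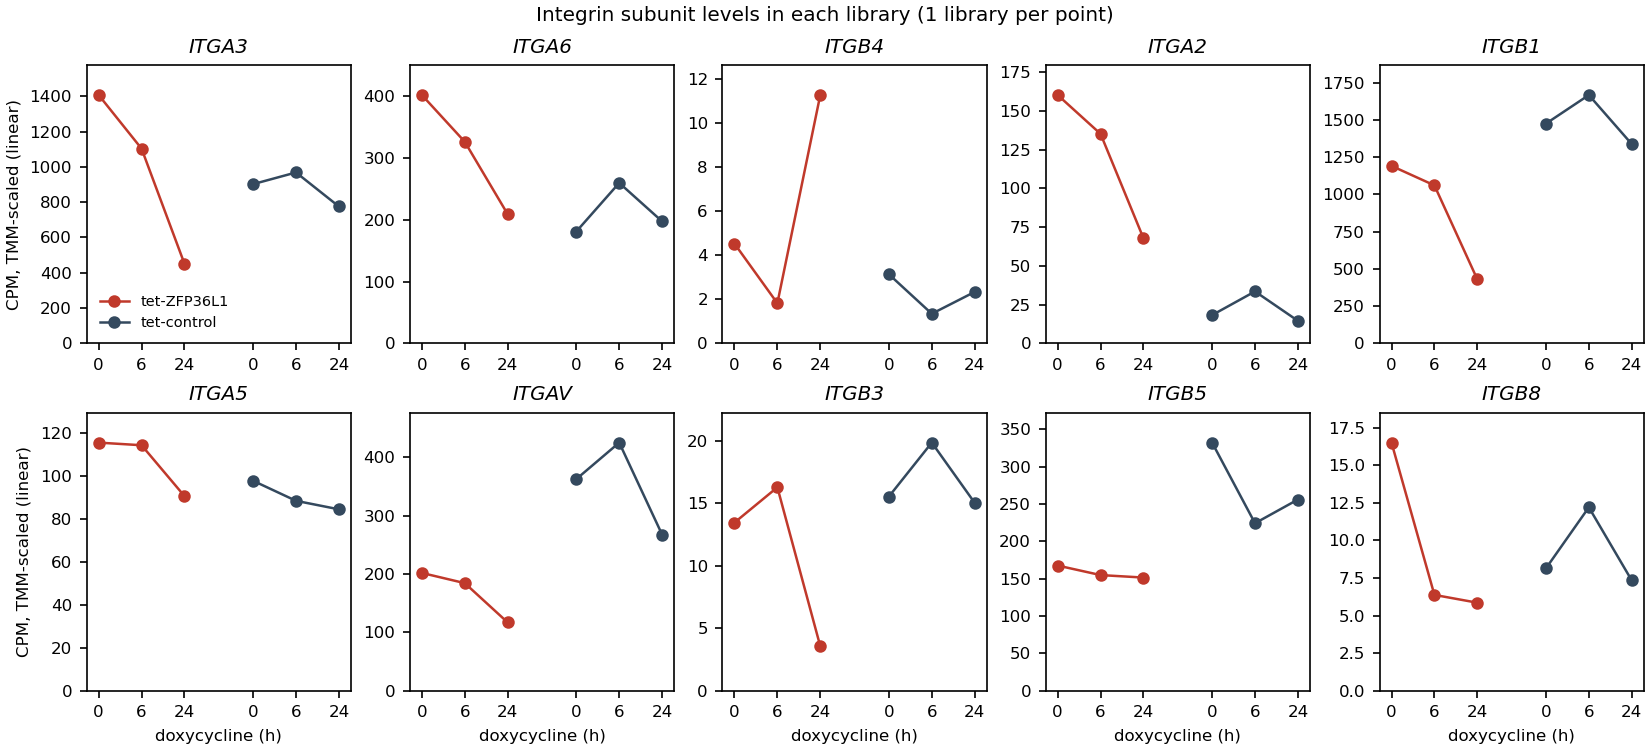
TMM-scaled CPM (linear y axes from 0) of each subunit in the 6 libraries, against hours of doxycycline (times equally spaced), with tet-ZFP36L1 (red) left of tet-control (dark) and 1 library per point. In tet-ZFP36L1 at 24 h, ITGA3 stood at 450.3 CPM, ITGB1 at 429.7 CPM and ITGA2 at 67.7 CPM, below their 0 h points, and ITGB4 alone stood above its own.

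At 6 h only ITGB4 and ITGB8 were called lower by their own change in tet-ZFP36L1 and none was called higher, while 15.6% of measured genes were lower and 9.09% higher. In tet-control at 6 h, ITGB4 was called lower and ITGA2 higher, where the shares of measured genes were 7.72% and 7.47%. The induction difference is the own change of tet-ZFP36L1 minus the change of tet-control. By this measure 3 of 10 subunits, ITGA2, ITGA6 and ITGB8, were lower at 6 h and none higher, against 14.3% and 7.02% of measured genes. At 24 h 6 were lower, ITGA2, ITGA3, ITGA6, ITGB1, ITGB3 and ITGB8, and 1, ITGB4, was higher, against 17.4% and 13.9% of measured genes. The median difference of the 10 was -0.35 at 6 h and -0.99 at 24 h, beside -0.01 and -0.02 over all measured genes. The 6 h and 24 h differences share their 0 h libraries. At 24 h the difference also leaned with abundance: with measured genes split into 5 equal bins by mean count, its median was -0.21 in the highest bin, which holds ITGA3, ITGA6, ITGAV, ITGB1 and ITGB5, and 0.23 in the lowest, which holds ITGB4 and ITGB8. In the highest bin 23.3% of genes were called lower at 24 h. With each bin centred on its own median, a choice made after seeing the data, the counts were again 6 lower and 1 higher.

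**Figure D2:**
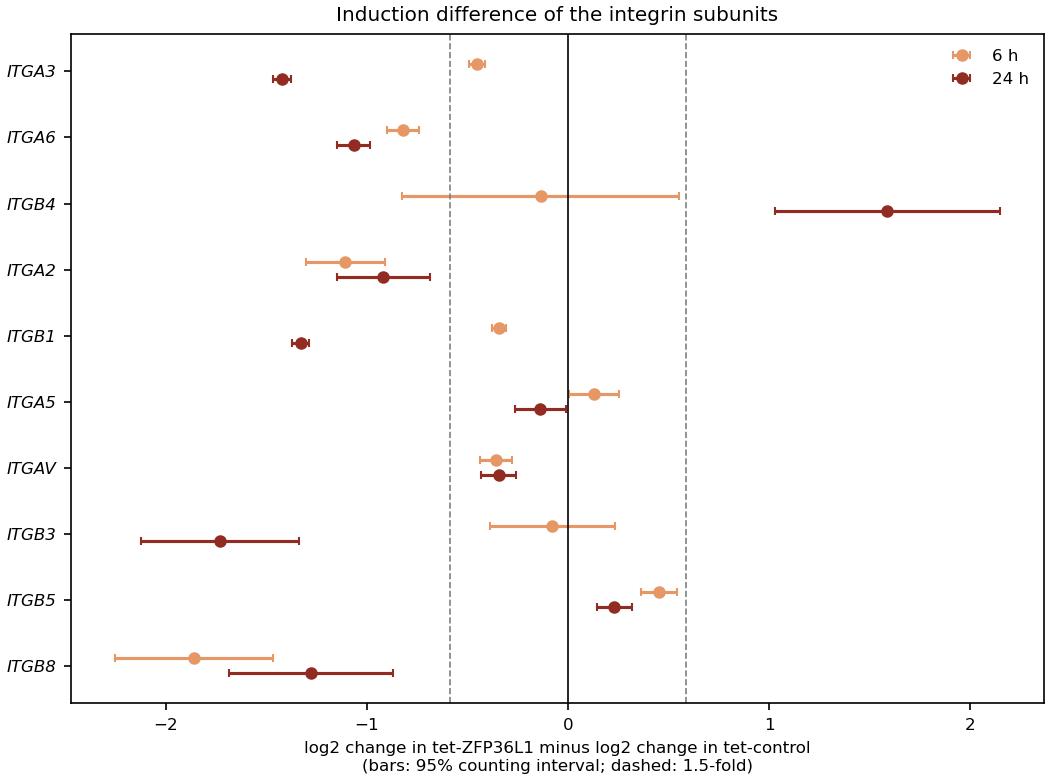
Induction difference of each subunit on the log2 scale at 6 h (orange) and 24 h (dark red), with 95% counting intervals and dashed lines at 1.5-fold. ITGA3, ITGB1 and ITGB3 lay within the dashed lines at 6 h and beyond the lower one at 24 h, and ITGB4 lay beyond the upper one at 24 h alone.

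**Figure D3:**
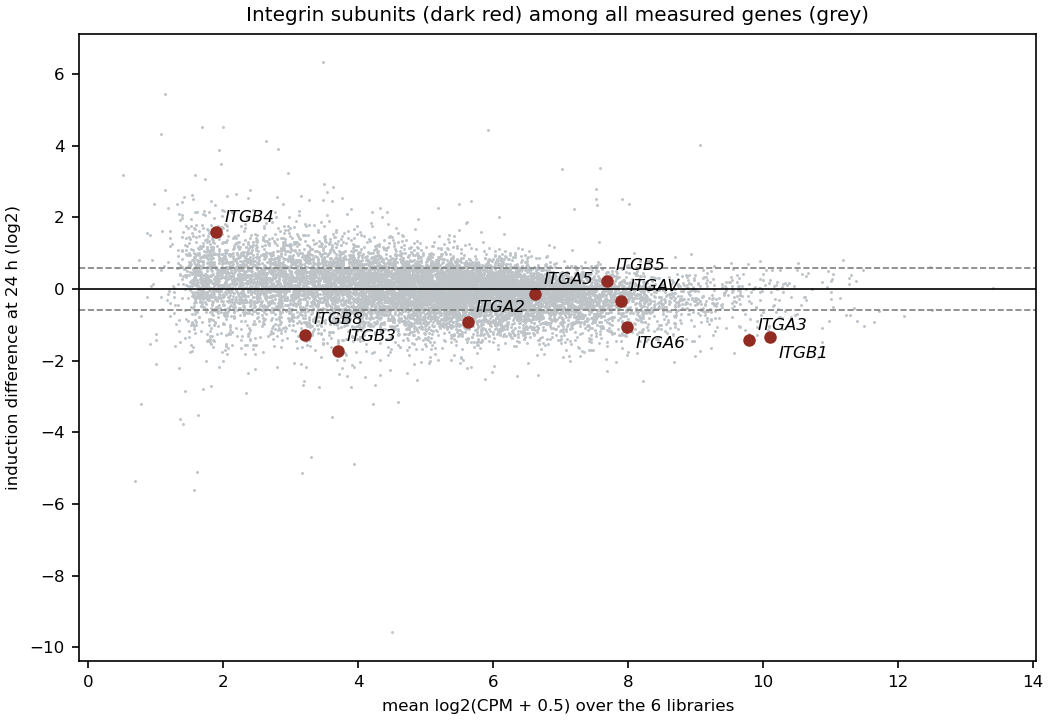
Induction difference at 24 h (log2) against mean log2(CPM + 0.5) over the 6 libraries for all measured genes (grey) and the 10 subunits (dark red, named). ITGA3 and ITGB1, among the most abundant genes, lay at -1.42 and -1.33, below the median of -0.21 of the highest of 5 bins by mean count; dashed lines mark 1.5-fold.

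ITGA3 and ITGB1 were the most abundant subunits and were lower together. ITGA3 (ENSG00000005884; GRCh38 chromosome 17, 50055968 to 50090481, plus strand) encodes the alpha chain of a laminin receptor that pairs with ITGB1. Over the 3 times its level was 1407, 1103 and 450.3 CPM in tet-ZFP36L1, against 901.8, 968.0 and 775.0 CPM in tet-control. Its 24 h value in tet-ZFP36L1 lay below all 5 other libraries, although this line had started with the highest of the 6 values. The own change at 24 h was -1.64 (-1.68 to -1.61), a 3.12-fold lower level, and the induction difference was -0.45 (-0.49 to -0.41) at 6 h and -1.42 (-1.47 to -1.38) at 24 h. ITGB1 (ENSG00000150093; chromosome 10, 32900319 to 33005792, minus strand) encodes the beta chain shared by most of these receptors. It stood at 1192, 1061 and 429.7 CPM in tet-ZFP36L1, against 1476, 1668 and 1339 CPM in tet-control, so the 24 h library was again the lowest of the 6. Its own change at 24 h was -1.47 (-1.51 to -1.44), a 2.77-fold lower level, with induction differences of -0.34 (-0.38 to -0.31) and -1.33 (-1.37 to -1.29) at 6 and 24 h. The single 7-base copies printed above for ITGA3 and ITGB1 lie in their most abundant coding transcripts (ENST00000320031 and ENST00000302278). The ITGB1 transcript followed the gene total, at 406.3, 333.7 and 157.1 TPM in tet-ZFP36L1, against 457.6, 511.4 and 405.3 TPM in tet-control.

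ITGA6 and ITGB4 encode the 2 chains of the hemidesmosome integrin, and their mRNAs did not move alike. ITGA6 (ENSG00000091409; chromosome 2, 172427354 to 172506282, plus strand) stood at 402.0, 326.3 and 209.0 CPM in tet-ZFP36L1, against 180.9, 259.7 and 197.4 CPM in tet-control. The uninduced tet-ZFP36L1 library was the highest of the 6, and by 24 h that line was near tet-control. The own change at 24 h was -0.94 (-0.99 to -0.89). The induction difference was -0.82 (-0.90 to -0.74) at 6 h, of which 0.52 was the higher level in tet-control, and -1.07 (-1.15 to -0.98) at 24 h. ITGB4 (ENSG00000132470; chromosome 17, 75721328 to 75757818, plus strand) was the least abundant subunit in 5 of the 6 libraries. Counts were 92, 35 and 246 in tet-ZFP36L1 over the 3 times, or 4.52, 1.81 and 11.3 CPM, against 63, 25 and 46 counts in tet-control, or 3.13, 1.34 and 2.33 CPM. Both lines were lower at 6 h, by -1.12 (-1.58 to -0.66) in tet-ZFP36L1 and -0.98 (-1.50 to -0.47) in tet-control, which left a difference of -0.14 (-0.82 to 0.55). At 24 h only the tet-ZFP36L1 library was above its 0 h level, with an induction difference of 1.59 (1.03 to 2.15). By the deposited TPM, ITGB4 stood at 3.06, 0.70 and 4.70 TPM in tet-ZFP36L1, against 1.21, 1.25 and 1.18 TPM in tet-control. The difference was then -1.59 at 6 h and 0.58 at 24 h, the second just short of 1.5-fold. Coding transcripts alone were at 2.80 TPM at 0 h and 3.37 TPM at 24 h in tet-ZFP36L1, or 89 and 234 counts. In tet-control they were at 0.60 and 0.43 TPM, or 54 and 39 counts. GALK1, on the opposite strand, overlaps ITGB4 with 26 to 65 counts per library, and whether reads were counted by strand is not stated in these sources.

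ITGA6 makes a pair of proteins that differ in their cytoplasmic tails, named A and B, through inclusion or skipping of an exon before the last. That exon has 130 bases (GRCh38 chromosome 2, 172501772 to 172501901). Coding transcripts with the exon (A) made up 50.4%, 47.4% and 36.5% of the TPM of A and B together at 0, 6 and 24 h in tet-ZFP36L1, against 49.2%, 41.9% and 33.9% in tet-control. The A share was lower at 24 h than at 0 h in each line. Transcripts without the exon summed to 51.9, 43.6 and 35.5 TPM in tet-ZFP36L1, against 22.4, 35.5 and 30.1 TPM in tet-control. The longer A transcript (ENST00000264107) and the main B transcript (ENST00000409080) share the copy of TATTTAT printed above, while a shorter A transcript (ENST00000409532), with a 466-base 3' UTR, has none. The shorter one held 13.6%, 15.1% and 4.68% of the gene's TPM in tet-ZFP36L1, against 10.9%, 10.1% and 2.85% in tet-control.

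**Figure D4:**
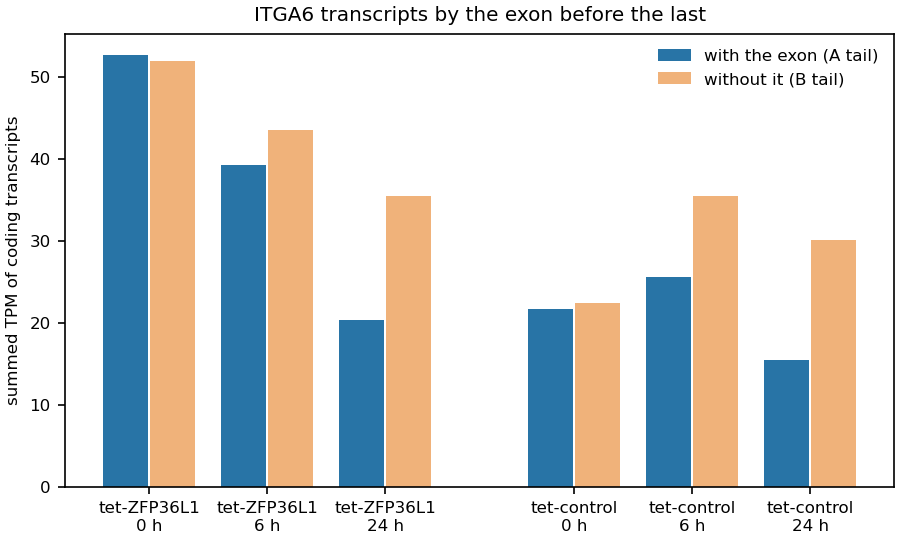
Summed TPM of ITGA6 coding transcripts with the 130-base exon (blue, A tail) and without it (orange, B tail) in each library, tet-ZFP36L1 left of tet-control. The 2 forms were near equal at 0 h in each line, and at 24 h the form without the exon was the larger, at 35.5 TPM in tet-ZFP36L1 and 30.1 TPM in tet-control.

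ITGA2, the alpha chain of a collagen and laminin receptor, set the lines apart more than any other subunit. ITGA2 (ENSG00000164171; chromosome 5, 52989326 to 53094779, plus strand) stood at 160.2, 135.1 and 67.7 CPM in tet-ZFP36L1, against 18.2, 33.4 and 14.5 CPM in tet-control. All 3 libraries of tet-ZFP36L1 lay above all 3 of tet-control, with a ratio of 8.61 before doxycycline and 4.56 at 24 h. The own change of tet-ZFP36L1 was -0.24 (-0.32 to -0.17) at 6 h and -1.24 (-1.32 to -1.15) at 24 h. Tet-control was 0.86 (0.68 to 1.04) higher at 6 h, so most of the 6 h induction difference of -1.11 (-1.30 to -0.91) came from tet-control. At 24 h tet-control was at -0.32 and the difference was -0.92 (-1.15 to -0.68).

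Of the receptors for arginine-glycine-aspartate ligands, ITGA5 and ITGB5 changed little in tet-ZFP36L1. ITGA5 (ENSG00000161638; chromosome 12, 54395261 to 54419460, minus strand), the fibronectin receptor alpha chain, stood at 115.7, 114.5 and 90.8 CPM in tet-ZFP36L1, against 97.9, 88.6 and 84.6 CPM in tet-control. Its highest and lowest CPM differed 1.37-fold, the narrowest range of the 10. Its differences of 0.13 at 6 h and -0.14 at 24 h changed sign with the deposited TPM, to -0.14 and 0.07. ITGB5 (ENSG00000082781; chromosome 3, 124761948 to 124901418, minus strand) stood at 167.6, 154.9 and 151.5 CPM in tet-ZFP36L1, against 332.1, 224.2 and 255.9 CPM in tet-control. Every tet-ZFP36L1 library was below every tet-control library, and the induction differences of 0.45 (0.36 to 0.54) and 0.23 (0.14 to 0.32) came mainly from lower levels in tet-control after doxycycline. ITGAV (ENSG00000138448; chromosome 2, 186590065 to 186680901, plus strand), the alpha partner of ITGB3, ITGB5 and ITGB8, stood at 201.9, 184.4 and 117.1 CPM in tet-ZFP36L1, against 362.6, 425.1 and 267.5 CPM in tet-control. It was below its 0 h level at 24 h in each line, by -0.78 (-0.85 to -0.71) in tet-ZFP36L1 and -0.44 (-0.49 to -0.39) in tet-control, and the difference of -0.35 (-0.43 to -0.26) was short of 1.5-fold. The transcript with the long 3' UTR was at 20.2, 20.2 and 12.8 TPM in tet-ZFP36L1, against 32.4, 32.6 and 27.9 TPM in tet-control. The one with the short 3' UTR was at 38.9, 29.98 and 23.0 TPM in tet-ZFP36L1, against 67.4, 90.2 and 40.3 TPM in tet-control.

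ITGB3 and ITGB8, the scarce beta partners of ITGAV, were both lower at 24 h but differed in when. ITGB3 (ENSG00000259207; chromosome 17, 47253846 to 47311816, plus strand) had, over the 3 times, 274, 314 and 78 counts in tet-ZFP36L1, or 13.5, 16.3 and 3.57 CPM, against 313, 371 and 297 counts in tet-control, or 15.5, 19.9 and 15.03 CPM. The 24 h tet-ZFP36L1 library alone was low, with an induction difference of -0.08 (-0.39 to 0.23) at 6 h and -1.73 (-2.13 to -1.34) at 24 h. The deposited TPM gave -1.16 at 24 h. Its value is uncertain, since 51.0% of the 31-base words in its transcripts also occur in transcripts of another gene, chiefly the overlapping AC068234.1, which held 0 to 13 counts per library. ITGB8 (ENSG00000105855; chromosome 7, 20330702 to 20415754, plus strand), with 6 copies of TATTTAT in its 3' UTR, was the subunit furthest below at 6 h. It had 336, 123 and 128 counts in tet-ZFP36L1, or 16.5, 6.38 and 5.86 CPM, against 164, 228 and 145 counts in tet-control, or 8.14, 12.2 and 7.34 CPM. By CPM the uninduced tet-ZFP36L1 library was the highest of the 6 and the induced libraries of that line were the lowest 2. By the deposited TPM the 24 h tet-ZFP36L1 library, at 1.74 TPM, was above tet-control at 0 and 24 h, at 1.66 and 1.22 TPM. The induction difference was -1.86 (-2.25 to -1.47) at 6 h and -1.28 (-1.69 to -0.87) at 24 h. With the deposited TPM it was -1.63 at 6 h and -0.37 at 24 h, where it was short of 1.5-fold. The transcript that holds the 6 copies was at 2.09, 0.69 and 0.49 TPM in tet-ZFP36L1, against 0.89, 1.21 and 0.83 TPM in tet-control. Another coding transcript (ENST00000537992), with a 333-base 3' UTR, held 0 copies and was also lower at 6 and 24 h in tet-ZFP36L1. It was at 0.69, 0.20 and 0.41 TPM there, against 0.42, 0.83 and 0.23 TPM in tet-control, with 9.85 to 42.1 counts per library.

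Of the 6 subunits called lower at 24 h, 5 held a copy of TATTTAT in the 3' UTR of the searched transcript, and the exception was ITGB3. ITGB8, one of the 5, was short of 1.5-fold at 24 h with the deposited TPM, at -0.37. Of the other 4, ITGA5, ITGAV, ITGB4 and ITGB5, none held one there. This split depends on the transcript searched. That of ITGAV held 59.6% of the gene's TPM, and another ITGAV transcript with 30.1% held 2 copies. For ITGB4 and ITGB5 the searched transcript held 28.4% and 18.0%. Among the subunits with a copy, the searched transcript held 54.3% for ITGB8 and 53.4% for ITGA6. Another coding transcript of each, with 24.3% for ITGB8 and 10.6% for ITGA6, held 0 copies. By its own change in tet-ZFP36L1, ITGAV was also called lower at 24 h, at -0.78. Over all searched genes, 3061 of 10541 held a copy, with 8.18% at 3' UTR lengths of 50 to 499 bases, where ITGAV and ITGB4 lie, 31.7% at 1000 to 1999 bases, where ITGA3, ITGA5, ITGB1, ITGB3 and ITGB5 lie, and 53.9% to 73.3% at the lengths of ITGA6, ITGA2 and ITGB8. With 10 genes that differ in 3' UTR length and abundance this is a description.

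The lines differed in their integrins before doxycycline was added. At 0 h ITGA2, ITGA3, ITGA6 and ITGB8 were called higher in tet-ZFP36L1 and ITGAV and ITGB5 lower, where 10% of measured genes were higher and 7.98% lower. The log2 differences of tet-ZFP36L1 from tet-control were 3.11 for ITGA2, 1.15 for ITGA6, 0.98 for ITGB8, 0.64 for ITGA3, -0.84 for ITGAV and -0.98 for ITGB5. An induction difference subtracts this starting difference, and all 4 subunits that started higher are among the 6 called lower at 24 h. At 24 h the lines were compared without their 0 h libraries: ITGA3, ITGAV, ITGB1, ITGB3 and ITGB5 were called lower in tet-ZFP36L1 and ITGA2 and ITGB4 higher, against 20.3% and 18.4% of measured genes. The 24 h differences were -0.78 for ITGA3, -1.64 for ITGB1 and -1.93 for ITGB3, whereas ITGA6 at 0.08 (0.02 to 0.14) and ITGB8 at -0.30 (-0.62 to 0.02) were near level with tet-control.

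**Figure D5:**
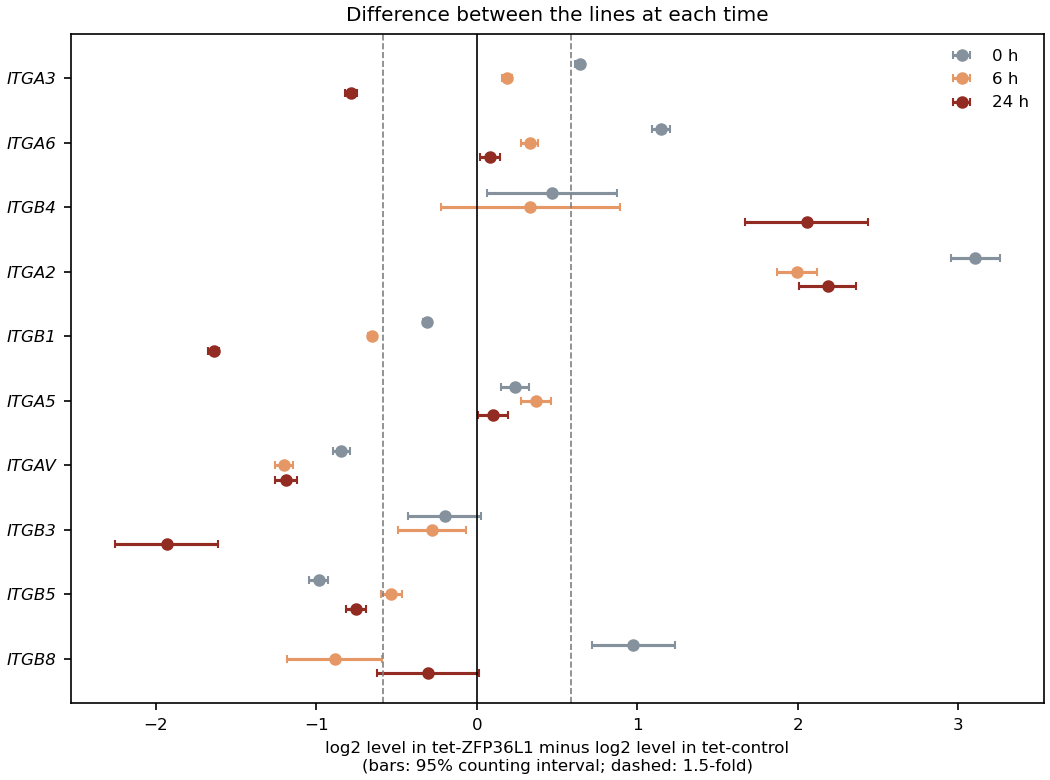
Log2 difference, tet-ZFP36L1 minus tet-control, of each subunit's level at 0 h (grey), 6 h (orange) and 24 h (dark red), with 95% counting intervals and dashed lines at 1.5-fold. ITGA2 was 3.11 higher at 0 h and stayed above tet-control, while ITGB1 was at -0.31, -0.65 and -1.64 at 0, 6 and 24 h.

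Per length, ITGB1, ITGA3 and ITGB5 were the most abundant subunits in every library and ITGB3, ITGB8 and ITGB4 were among the 4 least abundant. Median levels over the 6 libraries were 583.8 TPM for ITGB1, 389.4 for ITGA3, 183.1 for ITGB5, 74.9 for ITGAV, 62.3 for ITGA6, 37.1 for ITGA5, 8.80 for ITGA2, 5.12 for ITGB3, 1.70 for ITGB8 and 1.23 for ITGB4. Neighbours in this order overlap over the libraries: ITGB1 at 209.5 to 785.7 TPM with ITGA3 at 196.7 to 603.0 TPM, and ITGAV at 40.4 to 128.6 TPM with ITGA6 at 44.5 to 106.1 TPM. ITGA3 exceeded ITGB1 in uninduced tet-ZFP36L1 alone, at 603.0 against 574.7 TPM. ITGA6 stood above ITGAV in each tet-ZFP36L1 library, and ITGAV above ITGA6 in each tet-control library. ITGB1 made up 56.4% of the summed beta TPM in tet-ZFP36L1 at 24 h, against 66.6% to 78.0% in the other 5 libraries. Transcripts annotated as not coding take part in these levels: the coding ones held 55.8% to 60.6% of the TPM of ITGA3, but 88.1% to 90.2% of its counts. For the scarce ITGB4 they held 36.8% to 91.7% of TPM and 74.3% to 96.7% of counts. For ITGB8 they held 52.1% to 89.0% of TPM and 69.5% to 94.0% of counts.

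Of 16 other integrin subunits, 4 were measured: ITGA1, ITGA10, ITGA11 and ITGAE. ITGA11, a collagen-binding alpha chain that pairs with ITGB1, stood at 40.2, 26.8 and 9.11 CPM in tet-ZFP36L1, against 90.8, 81.0 and 75.9 CPM in tet-control, an induction difference of -1.83 (-2.06 to -1.59) at 24 h. ITGA10, also collagen-binding, was at -0.90 (-1.27 to -0.54). ITGA1 was at -0.28 and ITGAE, which pairs with ITGB7, at 0.01. The epithelial ITGB6 had 0, 0 and 1 counts in tet-ZFP36L1, against 22, 26 and 13 counts in tet-control, below the count minimum.

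Among matrix ligands, 9 of 23 measured genes were called lower and 5 higher in the induction difference at 24 h, beside 17.4% and 13.9% of all measured genes, with a median of -0.14. At 6 h 5 were lower and 3 higher, beside 14.3% and 7.02% of all measured genes, and the median was -0.20. FN1, fibronectin, stood at 9908, 11892 and 2657 CPM in tet-ZFP36L1, against 381.9, 716.6 and 392.1 CPM in tet-control. It was higher in every tet-ZFP36L1 library, and its 24 h difference was -1.94 (-1.98 to -1.89). THBS1, thrombospondin 1, was at -1.40 (-1.47 to -1.32). LAMA1, a laminin alpha chain, was at 2.08 (1.36 to 2.79). It had 32, 196 and 181 counts in tet-ZFP36L1 over the 3 times, against 4, 54 and 4 counts in tet-control. Both lines were thus higher at 6 h, with an induction difference of 0.09. The collagen chain COL1A2 was at 0.72 (0.24 to 1.19), from changes of 0.21 in tet-ZFP36L1 and -0.51 in tet-control.

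Of the cytoplasmic adhesion proteins, many of which link integrins to actin, 3 of 23 measured genes were called lower and 1 higher in the induction difference at 24 h, with a median of -0.08. The share lower was near the 17.4% of all measured genes, of which 13.9% were higher. At 6 h 2 were lower and 2 higher, beside 14.3% and 7.02% of all measured genes, with a median of 0.17. By their own change at 6 h, 9 of the 23 were called higher in each line, beside 9.09% of all measured genes in tet-ZFP36L1 and 7.47% in tet-control, with median changes of 0.39 in tet-ZFP36L1 and 0.33 in tet-control. The talin gene TLN1 was at 267.8, 351.3 and 271.9 CPM in tet-ZFP36L1, against 274.5, 307.3 and 287.7 CPM in tet-control. The largest 24 h differences were those of the adaptors TNS3 at -1.35 (-1.48 to -1.22) and NEDD9 at 1.47 (0.83 to 2.11), and of FERMT2, an integrin activator, at -0.95 (-1.07 to -0.83). NEDD9 had 36 to 90 counts per library, with changes of 0.71 in tet-ZFP36L1 and -0.76 in tet-control at 24 h.

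Of 11 measured integrin inhibitors and trafficking genes, 1 was called lower and 1 higher at 24 h, with a list median of -0.10, and 2 lower and 1 higher at 6 h, with 0.05. RAB21, which binds alpha tails in endosomes, was at -1.003 (-1.21 to -0.80) at 24 h and the endocytic adaptor DAB2 at 0.61 (0.19 to 1.04). The DAB2 value came from changes of 0.37 in tet-ZFP36L1 and -0.25 in tet-control, each short of 1.5-fold. Of 13 membrane partners and hemidesmosome genes, 2 were lower and 0 higher at 24 h, with a median of -0.22, and 4 lower and 0 higher at 6 h, with -0.28. Beside these lists, 17.4% of all measured genes were lower and 13.9% higher at 24 h, and 14.3% and 7.02% at 6 h, so the shares lower at 24 h were near or under those of all genes. PLAUR, the urokinase receptor, which associates with integrins, was at -1.79 (-1.97 to -1.60) at 24 h, and the tetraspanin CD9 at -0.88 (-1.02 to -0.73). The hemidesmosome plakin PLEC stood at 245.5, 241.2 and 226.9 CPM in tet-ZFP36L1, against 255.8, 305.2 and 275.9 CPM in tet-control.

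For the 3 subunits furthest from 0 at 24 h, ITGB3, ITGB4 and ITGA3, the genes nearest in pattern were sought by the distance between their log2 values over the 6 libraries, each centred on its mean, among 11080 protein-coding genes. ITGB1 was the nearest to ITGB3, at a distance of 0.54, followed by the chaperone HSPA8 at 0.57 and PSAT1, a serine synthesis enzyme, at 0.60. ARHGEF6 at 0.28, BTN3A2 at 0.41 and BTN3A1 at 0.43 were the nearest to ITGB4. APLP2, an amyloid precursor-like protein, was the nearest to ITGA3 at 0.29, with 1340, 906.7 and 407.2 CPM in tet-ZFP36L1, against 689.8, 784.1 and 727.3 CPM in tet-control. The next were the readthrough TMED7-TICAM2 at 0.46 and HSPA1L at 0.50, whose reads may be shared with near-identical genes. These distances rest on 6 libraries that all subunits share.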

How the data were processed

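Total RNA of 6 J82 cultures was prepared with standard BGISEQ protocols according to the labels. Tools named in the submitters' processing notes are kallisto and DESeq2, and the build is hg19, all without versions. The deposited expected counts (kallisto's estimated counts) are in reads per transcript and need not be whole. The deposited TPM values are scaled by the authors' pipeline for effective length and depth, and the length columns are deposited too.

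Of 196354 transcripts, 181857 matched GENCODE 29 (GRCh38) by identifier. The rest held 5.12% to 5.46% of counts and were left out. Counts were summed per gene and rounded. Positions are from GRCh38 and nothing was converted from hg19. Scaling used TMM factors (edgeR 4.0.16, R 4.3.3) over genes averaging 10 or more counts. Levels were put on the log2(CPM + 0.5) scale, where changes of low genes come out too small, and genes averaging 50 or more counts were kept. With 1 library per group, neither edgeR nor DESeq2 was used to test. Intervals use the delta method on counts, although reads lacking molecular identifiers can repeat a molecule. The calling rule and the intervals were tried on simulated counts with counting error alone, the error that the intervals assume. The simulated counts held no variation between cultures and no error of dividing reads, so the trial cannot show how the intervals hold here.

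The subunits and lists were chosen with earlier results of these data known. Named genes are the 10 subunits, ZFP36L1, other measured subunits, the 2 list members furthest each way at 24 h past 1.5-fold, and the 3 nearest patterns of the 3 subunits furthest from 0. KRT7, KRT8, KRT18, EPCAM, TLN1, PLEC and ITGB6 were named after their values were seen. Genes overlapping a subunit and shared 31-base words were checked. Alternatives were DESeq2 1.42.0 size factors, plain CPM, TPM, other count minimums, pseudocounts of 0.1 and 5, a fold of 2, and all transcripts in library sizes. Coding transcripts alone, and centring within 5 bins of mean count, were added after seeing the data. Python 3.11.15 with numpy 2.4.6, pandas 2.3.3 and matplotlib 3.10.9 was used.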

Additional observations from a re-analysis of the deposited data

Results flagged for a closer look

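The changes of 3 subunits went opposite ways in the lines, each with counting intervals off 0 and an induction difference past 1.5-fold. With 1 library per group the difference between the lines was not tested. At 6 h ITGA2 was at -0.24 in tet-ZFP36L1 and 0.86 in tet-control (induction difference -1.11), ITGA6 at -0.30 and 0.52 (-0.82), and ITGB8 at -1.31 and 0.56 (-1.86). At 24 h ITGA6 was at -0.94 in tet-ZFP36L1 and 0.12 in tet-control (-1.07). With the deposited TPM these 24 h changes were -0.86 and 0.036, so tet-control was then near its 0 h level.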

How the results depend on the processing

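No paired analysis was possible because each group has 1 library, and no library could be left out. Subunits called lower numbered 3 at 6 h and 6 at 24 h under all alternatives except the deposited TPM (4 and 5) and a fold of 2 (2 and 5). With the deposited TPM 0 subunits were higher at 24 h: ITGB4 was at 0.58 and ITGB8 at -0.37, and the ITGB4 change in tet-control at 6 h was 0.030, against -0.98. Over all measured genes, 1706 were lower and 836 higher at 6 h, and 2073 and 1656 at 24 h. With no filter on counts these were 3254, 2018, 3134 and 3529, and with a fold of 2 they were 559, 190, 774 and 558. A mean count of at least 10 gave 1326 higher at 6 h and 2546 at 24 h, and a pseudocount of 5 gave 382 and 1000. At 24 h the split was 1437 lower and 2469 higher with plain CPM and 1594 and 2255 with the deposited TPM. Plain CPM moved the median of all genes at 24 h to 0.15, against -0.02, and that of the subunits to -0.82, against -0.99. Of 720 values of single subunits under the alternatives, 587 moved by less than their counting interval, 132 by more, and 1 changed sign after being called. The cause was not tested. Depth limits ITGB4, at 25 to 246 counts per library.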
